A study of Xenopus laevis with 60 samples.

Results

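The genes described here are maternal mRNAs of the frog Xenopus laevis that were abundant in the early cleaving embryo and nearly absent at the start of gastrulation. A gene was a member if it carried a symbol, if its mean level in the 2 stage 5 libraries was at least 20 TPM (an exon read count scaled by exon length and to a fixed library total), and if its mean in the 2 stage 10.5 libraries was at most 1/16 of that. The germ plasm gene dnd1 was left out by the rule. Of 9574 genes with a symbol and at least 20 TPM at stage 5, 113 were members, and the remaining 9461 are called the other maternal genes. The members were chosen by these stage 5 and stage 10.5 values, which are given as a description and were not tested.

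Total RNA of whole embryos was sequenced to ask how the embryonic genome is activated. There were 60 libraries in 29 groups, each from 2 embryos, with 6814881 to 25549499 exon counts. Triptolide, a blocker of RNA polymerase II transcription, was given at 20 µM from stage 1 in collections A and B, against DMSO, where a collection is the embryos of 1 experimental day from the pooled eggs of 2 mothers. Cycloheximide, a blocker of translation, was given at 500 µg/mL from the beginning of stage 8 in collection B, against DMSO, and in triple morphants of collection F, against triple morphants without it. All treated embryos were collected 8 hours after fertilization, when untreated embryos of the same day were at mid stage 9. Per the paper, cycloheximide from stage 8 keeps embryos from reaching stage 9. For cycloheximide groups, stage 9 below thus names the time of collection. Triple morphants carried antisense morpholinos (MO) against pou5f3.2, pou5f3.3 and sox3, and double morphants of collection F against pou5f3.2 and pou5f3.3, both set against embryos with a GFP MO. In collections G, E and C, pou5f3.3 and sox3 MO were set against a GFP MO, in collection C with cycloheximide in both groups. Collection C also held single pou5f3.3 and sox3 morphants with cycloheximide, and collection D held the higher MO dose with cycloheximide. That dose was 55 ng of pou5f3.3 MO and 75 ng of sox3 MO, and each targeting MO was given at 40 ng elsewhere. GFP morphants had 80 ng of GFP MO in collections C, D and E and 120 ng in collections F, G and H. Double morphants of collection F, pou5f3.3 and sox3 morphants of collection G and single morphants of collection C also had 40 ng of GFP MO. Collection H held GFP morphants without and with cycloheximide and triple morphants with it. Untreated embryos were sampled at stages 5, 6, 7, 8 and 10.5, with no collection given in the labels, and at stage 9 in collections A and E.

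A frog egg carries a store of mRNA that directs development until the embryo's own genome is switched on in the blastula. During this maternal-to-zygotic transition part of the store is destroyed, by proteins the egg supplies and by products of newly made embryonic RNA, such as microRNAs. Triptolide removes the embryonic RNA, while cycloheximide removes proteins made after its addition. X. laevis is an allotetraploid and carries an L and an S copy (homeolog) of many genes.

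The members had a median of 59.3 TPM at stage 5, with a range of 20.0 to 783 TPM, and a median of 2.60 TPM at stage 10.5. The highest was btg4.S, at 792 and 774 TPM at stage 5 and 37.7 and 34.7 TPM at stage 10.5. The BTG4 protein is known from the mouse to bring a deadenylase to maternal mRNAs. XB5733004.L, a gene with a provisional symbol only, had 553 and 578 TPM at stage 5 and 20.6 and 21.3 TPM at stage 10.5. zfp36l2.1.S, which encodes a protein that binds AU-rich elements and promotes mRNA decay, had 507 and 508 TPM at stage 5 and 7.88 and 10.1 TPM at stage 10.5.

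Just inside the 1/16 limit stood ndufs4.L, ulk3.L and fos.S, with 6.13%, 6.08% and 6.00% of their stage 5 level left. Just outside it stood pif1.L, sybu.L and tradd.L, with 6.27%, 6.27% and 6.34% left. At the abundance limit, ttll7.L, XB5870894.L and gabrd.L had 20.0, 20.6 and 20.6 TPM at stage 5, and zfhx4.L, mvb12b.S and gnb1l.L just missed it with 19.997, 19.975 and 19.843 TPM. With TMM-scaled counts per exon length in place of TPM, all 113 members passed the same limits.

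Members came from both subgenomes, 66 from L and 47 from S, which is 58.4% L, beside 57.5% L among the other maternal genes. For 8 loci, both homeologs were members, among them btg4, cpeb1 and fbxo43. Another 53 members had a homeolog that was not a member. Of these partners, 26 had at least 20 TPM at stage 5, with a median of 11.3% of it left at stage 10.5. The median over the other maternal genes was 60.8%. Of the 26, 20 had at most 1/4 left, a share that was not counted over the other maternal genes. The 26 ranged from 6.41% to 83.1% left, where the rule sets the low end, and the 27 partners under 20 TPM were not assessed. The median exon length of the members was 1951 bases, shorter than the 2969 bases of the other maternal genes.

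**Figure D1:**
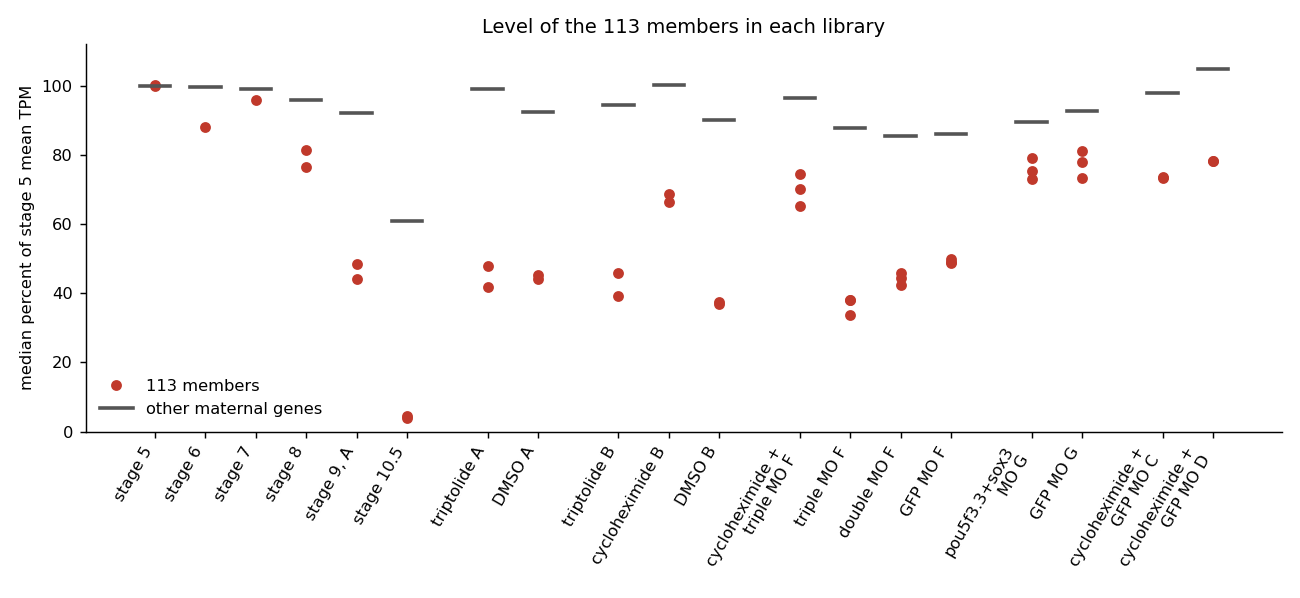
Each point is 1 library and gives the median over the 113 members of TPM as a percent of the stage 5 mean, by group. Bars give the same median over the 9461 other maternal genes in that group. Members stood at 45.8% in untreated stage 9 embryos of collection A, at 41.3% with triptolide, 68.1% with cycloheximide and 37.0% with DMSO in collection B, and at 4.57% at stage 10.5.

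Most members were held through cleavage and fell around stage 9 or after it. Their median level relative to stage 5 was 88.1% and 95.9% at stages 6 and 7. It was 79.0% at stage 8, 45.8% in untreated stage 9 embryos of collection A and 4.57% by stage 10.5. The other maternal genes stood at 99.7% and 99.1%, then at 95.7%, 92.2% and 60.8%. The summed level of the members was 12480 TPM at stage 5, 11516 TPM by stage 8, 6918 TPM in stage 9 embryos and 493 TPM at stage 10.5. TPM are shares of a library, so the loss of molecules per embryo was not measured.

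The time of fall was taken as the first stage from which a member stayed at or below 1/2 of its stage 5 mean. Of the members, 11 had fallen by stage 6 and 1 more by stage 7, then 5 by stage 8, 47 by stage 9 and 49 by stage 10.5. Stages 6 and 7 had 1 library each, with no labelled collection. At stage 6, 8 members were at or below 1/16 of stage 5, and 4 of these had a later group mean above 1/2 of it. Without the 8, 5 members had fallen by stage 6. An early fall cannot be told apart here from a clutch that never held the mRNA. At stage 9 of collection A, 64 members (56.6%) stood at or below 1/2, against 4.56% of the other maternal genes. The classes rest on that collection: at or below 1/2 stood 76 members in DMSO embryos of collection B and 58 in GFP morphants of collection F, but 26 in GFP morphants of collection G and 22 in those of collection H. The first 3 classes were pooled below, a choice made after their sizes were seen.

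Members of the oocyte RNA-binding and egg arrest lists fell at different times. CPEB1 binds the cytoplasmic polyadenylation element and sets the translation of stored mRNAs in Xenopus oocytes. cpeb1.L had 240 and 241 TPM at stage 5, 279 and 280 TPM at stages 6 and 7, 238 and 210 at stage 8, 267 and 223 at stage 9 and 10.4 and 9.97 TPM at stage 10.5. cpeb1.S had 217 and 221 TPM at stage 5, 257 and 249 at stage 8, 227 and 186 at stage 9 and 11.1 and 10.9 TPM at stage 10.5. Both copies thus stood near their stage 5 level at stage 9, and nearly all of their fall came after it. fbxo43, known as Emi2, inhibits the anaphase-promoting complex and keeps the frog egg in meiotic arrest. fbxo43.S had 201 and 200 TPM at stage 5, 170 and 192 at stage 8, 170 and 157 at stage 9 and 4.05 and 5.77 TPM at stage 10.5. Its homeolog fbxo43.L had 253 and 255 TPM at stage 5, 233 and 235 at stage 8, 139 and 131 at stage 9 and 7.34 and 6.42 TPM at stage 10.5. At stage 9 the L copy was thus nearer to 1/2 of stage 5 than the S copy.

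zar1l.S, whose protein belongs to the Zygote arrest family of oocyte RNA-binding proteins, had 308 and 301 TPM at stage 5, 263 and 189 at stage 8, 236 and 204 at stage 9 and 14.5 and 18.9 TPM at stage 10.5. hprt1.L, a purine salvage enzyme often used as a reference gene, had 60.7 and 57.6 TPM at stage 5, 76.7 and 78.7 at stage 9 and 3.83 and 3.07 TPM at stage 10.5. Stage 9 of hprt1.L was above stage 5 in both libraries. The highest stage 9 shares of stage 5 were those of hprt1.L, ca10.S, lrrc40.L, nd6.L and itga4.L.

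The second group had fallen by stage 9. XB5953084.L, given in the files as a provisional kif20a (a kinesin of cell division) and chosen after its values were seen, had 208 and 203 TPM at stage 5, 193 and 214 at stage 8, 43.3 and 39.7 at stage 9 and 4.12 and 2.86 TPM at stage 10.5. mad2l1.L, which encodes the spindle checkpoint protein Mad2, had 53.5 and 57.7 TPM at stage 5, 32 and 33 TPM at stage 8, 15.3 and 11.5 at stage 9 and 4.03 and 1.92 TPM at stage 10.5. At stage 8, in embryos of no labelled collection, mad2l1.L was thus below its stage 5 level, while XB5953084.L was near it. btg4.L had 500 and 513 TPM at stage 5, 426 and 553 at stage 8, 256 and 250 at stage 9 and 18.6 and 15.6 TPM at stage 10.5. Its homeolog btg4.S still stood at 562 and 576 TPM at stage 9, nearer to its stage 5 level.

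rpain.S, which encodes a protein that carries replication protein A into the nucleus, had 369 and 396 TPM at stage 5, 281 and 262 at stage 8 and 145 and 138 TPM at stage 9. btg5.1.L, a BTG family gene, had 325 and 326 TPM at stage 5, 341 and 344 at stage 8 and 144 and 150 TPM at stage 9. prdx2.L, a peroxiredoxin that removes hydrogen peroxide, had 557 and 555 TPM at stage 5, 330 and 296 at stage 8 and 305 and 308 TPM at stage 9. Its first drop was seen between stage 7, of 1 library, and stage 8, and stage 8 was like stage 9 of collection A. Stage 9 means of prdx2.L without inhibitor or targeting MO ran from 207 TPM (GFP morphants, collection G) to 440 TPM (GFP morphants, collection H). Stages 5 to 8 had no labelled collection, so stage and clutch cannot be told apart in this drop.

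**Figure D2:**
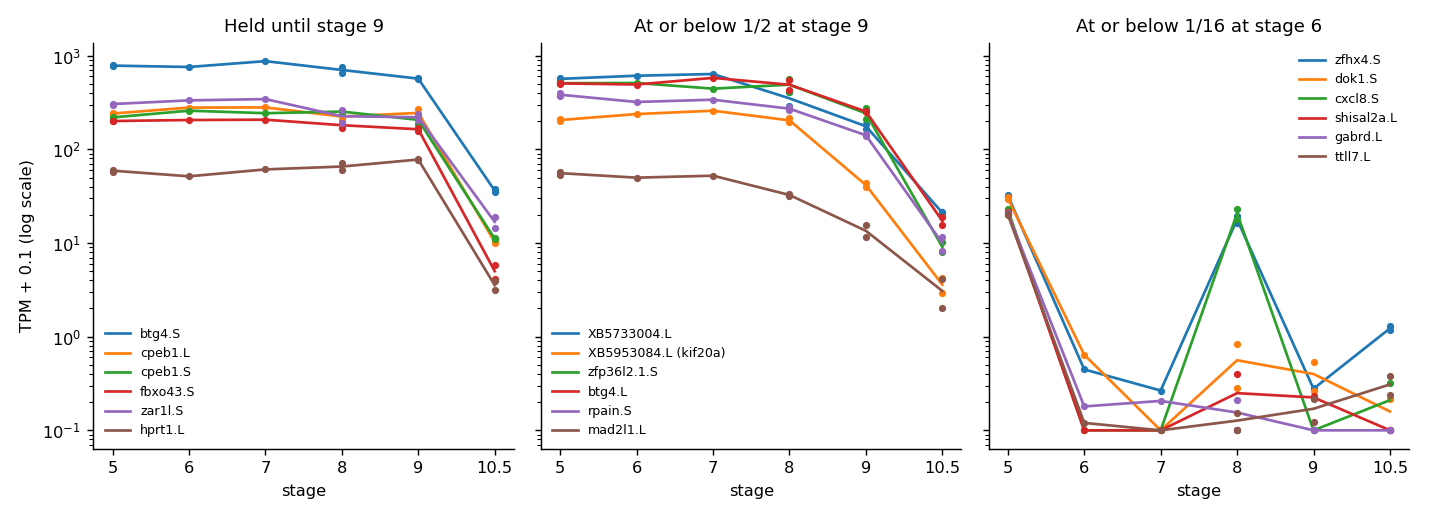
TPM plus 0.1 on a log axis against stage for 18 members, with a point per library and a line through the means. The left panel holds members above 1/2 of stage 5 at stage 9 (cpeb1.L at 267 and 223 TPM there), the middle panel members at or below it (XB5953084.L at 43.3 and 39.7 TPM), and the right panel members near 0 already at stage 6, of which zfhx4.S and cxcl8.S were high again at stage 8.

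Stage 9 was tested against stage 8, 2 libraries each, none of which the rule had used. edgeR's quasi-likelihood test was fitted on exon counts of 27601 genes together with 9941 intron entries. The p-values were adjusted over all entries by Benjamini and Hochberg, and the counts below are of exon entries. The stricter call rule took an adjusted p under 0.05 plus a minimum log2 difference of 1.5. By it 2 members were higher at stage 9 and 12 lower, beside 7.37% and 5.47% of all genes tested. At the adjusted p alone, 7 members were higher and 82 lower, beside 15.6% and 29.6% of all genes and 14.4% and 44.2% of the other maternal genes. The median log2 difference was -0.82 for the members and -0.20 for the other maternal genes. gins1.S, a subunit of the replicative helicase, had 14.8 and 14.4 TPM at stage 9 and 69.1 and 76.8 TPM at stage 8. The groups lay far apart, with a log2 difference of -2.45 ± 0.17 (SE) and an adjusted p of 1.02e-17 by edgeR. For XB5953084.L the log2 difference was -2.43 ± 0.11 (adjusted p = 1.8e-24, edgeR). The named gene gins1.S was chosen after its values were seen. Stage 8 embryos had no labelled collection, so stage and clutch cannot be told apart here.

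Intron signal of the members' own genes was low. Intron reads, which come from unspliced new RNA, were deposited as RPKM (intron reads scaled by intron length and library size) for 111 members. At stage 9 of collection A, 4 of the 111 (3.60%) reached 0.25 RPKM, against 2967 of 9362 introns of other maternal genes (31.7%). At stage 10.5 it was 5 members (4.50%) and 52.0% of the others. The rule chose the members by a low exon level in these same stage 10.5 libraries, so that share is not independent of it. Of the 20 member introns with enough reads to be tested, 7 were lower with triptolide than with DMSO in collection A and 7 in collection B, and 5 were higher and 2 lower at stage 9 than at stage 8, by edgeR with an adjusted p under 0.05 and the minimum log2 difference of 1.5. Among the other maternal genes 4183 and 4479 of 5757 introns were lower with triptolide in collections A and B. Of the same 5757 introns, 3706 were higher and 42 lower at stage 9 than at stage 8. The introns of cdc7.L (a replication kinase) and dnajc9.L (a histone chaperone) were among the 7 in both collections, with log2 differences of -2.50 and -1.90 in collection A.

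Triptolide left the fall of the members at stage 9 nearly as deep as DMSO did. Their median share of stage 5 was 44.8% with triptolide and 45.1% with DMSO in collection A, and 41.3% with triptolide and 37.0% with DMSO in collection B. As a check of the drug, 26 of 27 listed zygotic genes were lower with triptolide than with DMSO in collection A and 25 in collection B at adjusted p under 0.05. Library medians over the members were 41.7% and 47.9% with triptolide and 44.0% and 45.4% with DMSO in collection A, so these groups overlapped. In collection B they were 39.2% and 45.8% with triptolide and 37.0% and 37.5% with DMSO, without overlap.

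In collection A, 34 members were higher with triptolide and 2 lower at adjusted p alone, beside 24.9% and 6.72% of all genes and 53.1% and 1.06% of the other maternal genes. With the minimum log2 difference, 0 were higher and 2 lower, beside 0.167% and 5.70% of all genes. In collection B, 32 members were higher and 2 lower at adjusted p alone, beside 14.0% and 7.30% of all genes and 29.6% and 0.782% of the other maternal genes. With the minimum difference 1 was higher and 2 lower, beside 0.167% and 6.20%. The median log2 difference of the members was 0.22 in collection A and 0.23 in collection B, and that of the other maternal genes 0.24 and 0.18. Relative to the other maternal genes, the members' medians were thus -0.02 and 0.05. The count of members called moved with the scaling, to 14 in collection A and 19 in collection B when scaling factors came from exon counts alone, where the members' medians were 0.03 and 0.09. It also fell to 10, 13 and 20 without triptolide replicate 2, triptolide replicate 1 or DMSO replicate 1 of collection A, and to 22 without DMSO replicate 2 of collection B.

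The triptolide calls differed in number between the times of fall. Of the 49 members with a time of fall of stage 10.5, 28 (57.1%) were higher with triptolide in collection A and 23 (46.9%) in collection B, beside the 53.1% and 29.6% of other maternal genes, and 0 were lower in either. Of the 47 that fell at stage 9, 5 (10.6%) and 6 (12.8%) were higher. The medians were 0.29 and 0.26 in the late class and 0.14 and 0.17 in the stage 9 class. In collection A the share of the late class was near that of the other maternal genes. With scaling from exon counts alone, the calls over all members were fewer than those of the late class here. The classes were set by untreated stage 9 levels of collection A. The difference between the classes was not tested.

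Both copies of fbxo43 and of cpeb1 were higher with triptolide in both collections. fbxo43.S had 219 and 215 TPM with triptolide and 151 and 151 TPM with DMSO in collection A, and 155 and 171 TPM with triptolide and 122 and 119 TPM with DMSO in collection B. The groups did not overlap in either collection. Its log2 difference was 0.67 ± 0.08 (SE; adjusted p = 6.35e-10) in collection A and 0.54 ± 0.08 (adjusted p = 1.64e-07) in collection B, by edgeR. cpeb1.S had 281 and 243 TPM with triptolide and 195 and 180 TPM with DMSO in collection A, and 257 and 258 TPM with triptolide and 193 and 194 TPM with DMSO in collection B. Triptolide libraries were again the higher ones in each collection, with log2 differences of 0.63 ± 0.08 and 0.51 ± 0.08. fbxo43.L, cpeb1.L and zar1l.S had log2 differences of 0.64, 0.53 and 0.49 in collection A and of 0.47, 0.34 and 0.62 in collection B, all past the adjusted p.

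btg3.S, a BTG family gene at or below 1/2 of its stage 5 mean by stage 8, had 230 and 223 TPM with triptolide and 137 and 126 TPM with DMSO in collection A. In collection B it had 69.7 and 134 TPM with triptolide and 71.8 and 54.0 TPM with DMSO, so the groups overlapped there. Its log2 differences were 0.93 ± 0.13 and 0.79 ± 0.13 (SE), and btg3.S was named after its values were seen. Without inhibitor or targeting MO, stage 9 means of btg3.S ran from 27.4 TPM (GFP morphants, collection F) to 172 TPM (untreated, collection E). Stage 8 embryos had no labelled collection, so stage and clutch cannot be told apart in its time of fall. XB5733004.L had 134 and 158 TPM with triptolide and 153 and 162 TPM with DMSO in collection A, and 139 and 144 TPM with triptolide and 132 and 134 TPM with DMSO in collection B. Its log2 difference did not pass the test in either, with 95% intervals of -0.15 to 0.23 and -0.00 to 0.37. The test of the difference between the 2 collections' triptolide effects called 0 members by edgeR and 0 by DESeq2, beside 0.261% of all genes by edgeR. At an unadjusted p under 0.05 there were 5, and the lowest adjusted p was 0.295.

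Members lower with triptolide were few and at low levels. c9.L, a complement component, was at 0 counts in both triptolide libraries of collection B and at 68 and 54 counts in the DMSO libraries, which put DMSO at least 28.8-fold above the floor of 3 counts per library. Its intron was lower with triptolide as well, with edgeR log2 differences of -4.64 in collection A and -7.10 in collection B. Exon counts of c9.L were 0 at stages 6, 7 and 8. The part of new transcription in the c9.L result was not tested. dhx40.S, a putative RNA helicase, had 0.131 and 0.045 TPM with triptolide and 0.439 and 0.375 TPM with DMSO in collection A. In collection B dhx40.S had 21.4 and 20.4 TPM with triptolide and 24.1 and 23.4 TPM with DMSO. scgn.L, a calcium-binding protein, was called lower in collection B through 1 DMSO library, with 0.157 and 0 TPM with triptolide and 5.24 and 0 TPM with DMSO. Without DMSO replicate 1 its log2 difference was 2.65, in the other direction. The same 2 genes, c9.L and scgn.L, were the members called lower with cycloheximide in collection B, and scgn.L stood at 3.86 without that library.

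**Figure D3:**
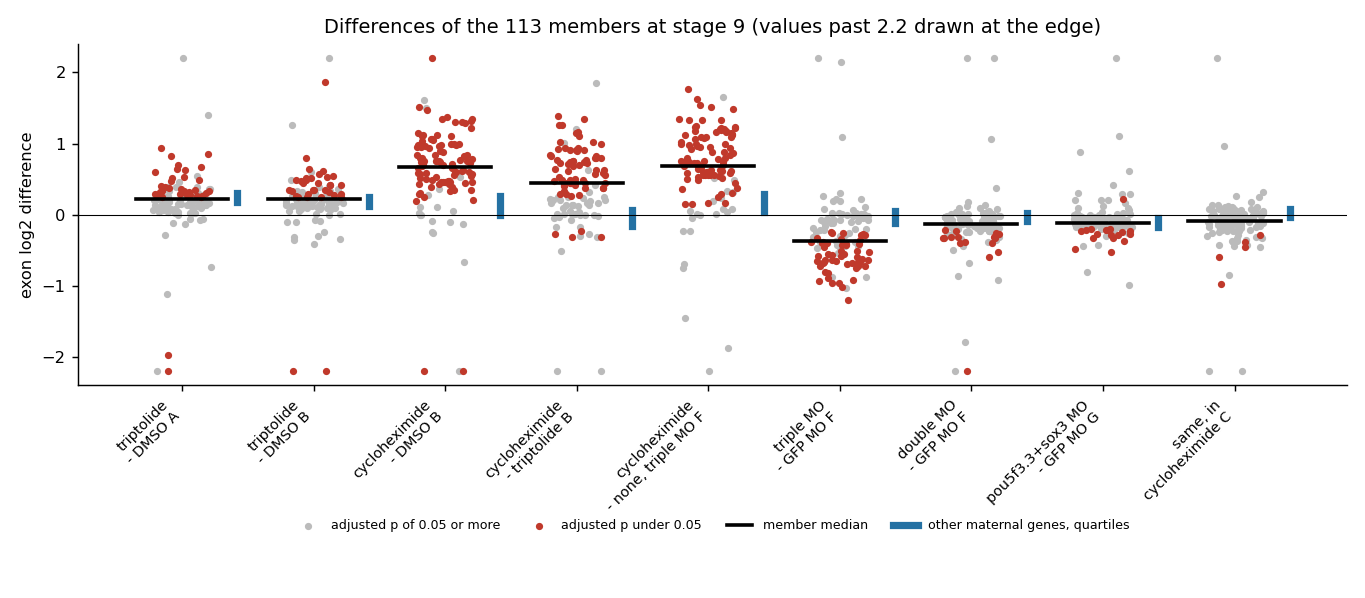
Log2 differences of exon counts for the 113 members at stage 9, a point per member, in red where the adjusted p was under 0.05, with the member median as a black line and the quartiles of the other maternal genes as a blue bar. Values past 2.2 in size are drawn at the edge. The member median stood at 0.22 and 0.23 for triptolide, at 0.68 and 0.69 for cycloheximide and at -0.37 for triple morphants.

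Cycloheximide from stage 8 left the members higher than in embryos without it collected at the same time. The groups were matched in time and not in stage, since cycloheximide embryos did not progress to stage 9. The members' median share of stage 5 was 68.1% with cycloheximide and 37.0% with DMSO in collection B. Library medians were 66.3% and 68.7% against 37.0% and 37.5%. In triple morphants of collection F it was 72.3% with cycloheximide and 35.97% without, with library medians of 65.2% to 74.6% against 33.8% to 38.2%. The groups did not overlap in either collection. The number of members at or below 1/2 of stage 5 was 25 with cycloheximide and 76 with DMSO in collection B.

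In collection B, 92 members were higher with cycloheximide and 2 lower at adjusted p alone, beside 16% and 6.11% of all genes and 25.7% and 2.19% of the other maternal genes. In collection F, 90 members were higher and 0 lower, beside 21.3% and 8.94% of all genes and 39.6% and 1.62% of the other maternal genes. The median log2 difference was 0.68 for members and 0.11 for the other maternal genes in collection B, and 0.69 and 0.15 in collection F. Most differences were under the minimum log2 difference of 1.5: with it, 2 members were higher and 2 lower in collection B, beside 1.53% and 3.94% of all genes, and 4 higher and 0 lower in collection F, beside 0.428% and 7.00%. The count of 4 was 1 without cycloheximide replicate 3 and 2 without triple morphant replicate 1 of collection F. The cycloheximide libraries of collection B were the least alike of all replicate pairs. Without cycloheximide replicate 1 the count at adjusted p alone was 78, of which 74 were higher.

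Cycloheximide lowered part of the new transcription as well. Of the 27 zygotic check genes, 20 were lower and 4 higher with cycloheximide than with DMSO in collection B, and 24 lower and 1 higher in collection F. Introns of other maternal genes reached 0.25 RPKM in 6.49% of cases with cycloheximide, 0.587% with triptolide and 23.5% with DMSO in collection B. The part of lower transcription in the cycloheximide result was not tested.

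Members that fell at stage 9 showed the larger cycloheximide difference. Of these 47, 44 were higher in collection B and 44 in collection F, with medians of 0.89 and 1.08. Of the 49 that fell after stage 9, 41 and 39 were higher, with medians of 0.47 and 0.56. Of the 17 that fell by stage 8, 7 were higher in collection B and 7 in collection F. Some of these 17 were near 0 in DMSO embryos of collection B, where a difference could hardly be called. Among them were shisal2a.L at 0.272 TPM, gabrd.L at 0.0435 TPM and ttll7.L at 0 TPM. The members that fell at stage 9 stood at 62.1% of stage 5 with cycloheximide and 31.5% with DMSO in collection B. Those that fell later stood at 82.6% with cycloheximide and 58.0% with DMSO there. The classes were set by untreated stage 9 levels, so the later class had less loss in which a difference could show. The differences between classes were not tested.

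mad2l1.L had 30 and 25 TPM with cycloheximide and 8.67 and 10.3 TPM with DMSO in collection B. The groups lay apart, and the log2 difference was 1.48 ± 0.20 (SE; adjusted p = 1.38e-08, edgeR). In collection F mad2l1.L had 45.8, 33.4 and 52.0 TPM with cycloheximide and 11.7, 15.2 and 16.7 TPM without. This difference was 1.63 ± 0.15 on the log2 scale (adjusted p = 6.57e-14, edgeR), and the highest cycloheximide library was near the stage 5 level.

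XB5953084.L had 165 and 162 TPM with cycloheximide and 62.6 and 63.0 TPM with DMSO in collection B, and 106, 96.4 and 130 TPM with cycloheximide and 33.8, 42.2 and 40.4 TPM without in collection F. Its log2 differences were 1.32 ± 0.10 and 1.54 ± 0.09, with no overlap in either. XB5733004.L had 343 and 299 TPM with cycloheximide and 132 and 134 TPM with DMSO in collection B, and 227, 232 and 260 TPM with cycloheximide and 66.1, 74.8 and 74.2 TPM without in collection F. Its log2 differences were 1.21 ± 0.09 and 1.76 ± 0.09, the second being the highest of any member in collection F. zfp36l2.1.S had 443 and 404 TPM with cycloheximide and 211 and 229 TPM with DMSO in collection B, a log2 difference of 0.88 ± 0.10. Its paralog zfp36l2.2.L had 557 and 545 TPM with cycloheximide and 287 and 306 TPM with DMSO, a log2 difference of 0.83.

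Other genes higher with cycloheximide were named after their values were seen. fos.S, an AP-1 transcription factor gene, had 62.5 and 69.1 TPM with cycloheximide and 28.1 and 23.4 TPM with DMSO in collection B. tbpl2.L, a TBP relative used in oocytes, had 30.2 and 18.4 TPM with cycloheximide and 10.2 and 11.1 TPM with DMSO. pabpn1l.S, known in the mouse as a partner of BTG4, had a log2 difference of 1.10 in collection B and of 1.10 in collection F. ndufb4.L, a subunit of respiratory complex I, had 31.3 and 55.2 TPM with cycloheximide and 18.0 and 10.7 TPM with DMSO, and a log2 difference of 1.52 ± 0.25.

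The longest-held members differed. cpeb1.L had 251 and 213 TPM with cycloheximide and 218 and 218 TPM with DMSO in collection B, with a log2 difference of 0.03 and a 95% interval of -0.12 to 0.18. Its homeolog cpeb1.S had 251 and 226 TPM with cycloheximide and 193 and 194 TPM with DMSO, a log2 difference of 0.24 that passed (adjusted p = 0.0141, edgeR). hprt1.L had 59.0 and 59.4 TPM with cycloheximide and 60.5 and 64.1 TPM with DMSO, with an interval of -0.33 to 0.06. The cycloheximide and DMSO libraries overlapped for cpeb1.L, and for hprt1.L they lay close together. fbxo43.S had 213 and 162 TPM with cycloheximide and 122 and 119 TPM with DMSO, a log2 difference of 0.58 ± 0.08 that was close to its triptolide difference of 0.54. Both differences were taken against the same DMSO libraries.

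**Figure D4:**
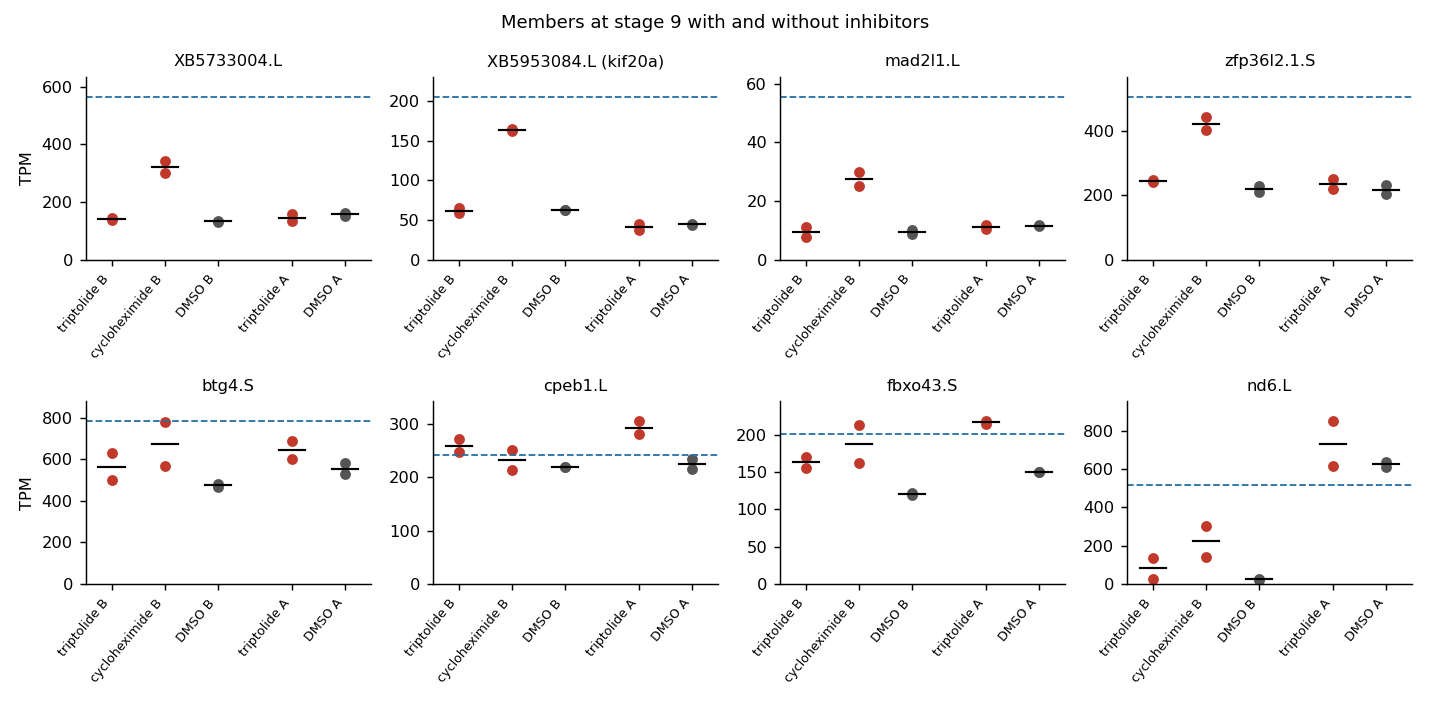
TPM of 8 members at stage 9 with triptolide, cycloheximide and DMSO, a point per library, a black line at the mean and a dashed line at the stage 5 mean. XB5733004.L, XB5953084.L, mad2l1.L and zfp36l2.1.S stood above all other groups with cycloheximide, at 30 and 25 TPM for mad2l1.L against 8.67 and 10.3 TPM with DMSO, and fbxo43.S was higher with either inhibitor.

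Cycloheximide and triptolide were compared directly in collection B. At adjusted p alone, 64 members were higher with cycloheximide and 4 lower, beside 8.47% and 5.12% of all genes and 7.41% and 9.69% of the other maternal genes. No member passed the adjusted p together with the minimum log2 difference in either direction by edgeR (0 and 0, beside 3.75% and 0.373% of all genes) or by DESeq2 (0), and 76 had an unadjusted p under 0.05. Leaving out triptolide replicate 1, triptolide replicate 2 or cycloheximide replicate 1 gave 1, 3 and 2. The median log2 difference was 0.44 for the members and -0.07 for the other maternal genes. Of the members that fell at stage 9, 41 of 47 were higher and 0 lower. Of those that fell later, 18 of 49 were higher and 4 lower. The 4 were cpeb1.L, cpeb1.S, hprt1.L and tubg1.L, the last a gamma-tubulin gene named after its values were seen. cpeb1.L had 251 and 213 TPM with cycloheximide and 247 and 271 TPM with triptolide, a log2 difference of -0.32 ± 0.08 (adjusted p = 0.00114, edgeR) with overlapping TPM. mad2l1.L had 30 and 25 TPM with cycloheximide and 7.63 and 11.2 TPM with triptolide, and XB5733004.L 343 and 299 TPM with cycloheximide and 139 and 144 TPM with triptolide. These comparisons share the triptolide libraries with those against DMSO. The later class again had less loss in which a difference could show.

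Triple morphants of collection F carried less of the members than GFP morphants. Their median share of stage 5 was 35.97% in triple morphants, 44.1% in double morphants and 49.1% in GFP morphants. At adjusted p alone, 0 members were higher and 54 lower in triple morphants, beside 3.33% and 7.15% of all genes and 2.12% and 9.97% of the other maternal genes. No member passed the adjusted p together with the minimum log2 difference by edgeR (0 and 0, beside 1.31% and 1.49%) or by DESeq2 (0), and 67 had an unadjusted p under 0.05. The median log2 difference was -0.37 for the members and -0.02 for the other maternal genes. XB5953084.L had 33.8, 42.2 and 40.4 TPM in triple morphants and 88.1, 84.6 and 84.3 TPM in GFP morphants, without overlap. Its log2 difference was -1.19 ± 0.09 (adjusted p = 2.37e-15, edgeR). mad2l1.L had 11.7, 15.2 and 16.7 TPM in triple morphants and 26.1, 28.5 and 30.2 TPM in GFP morphants, again apart. btg5.1.L had 170, 164 and 166 TPM in triple morphants and 284, 287 and 287 TPM in GFP morphants.

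Not all members were lower in triple morphants, and the btg4 homeologs differed. btg4.S had 413, 444 and 454 TPM in triple morphants and 547, 554 and 550 TPM in GFP morphants, without overlap. Its log2 difference of -0.38 was near the member median of -0.37. btg4.L had 304, 314 and 346 TPM in triple morphants and 315, 289 and 315 TPM in GFP morphants, with a 95% interval of -0.16 to 0.20. Of the members that fell at stage 9, 31 of 47 were lower, and of those that fell later, 20 of 49. Triple morphants are the group without cycloheximide in the collection F comparison above, so the 2 comparisons share those libraries.

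Double morphants of collection F had 0 members higher and 17 lower at adjusted p alone, beside 2.09% and 2.91% of all genes. The other maternal genes had 0.359% and 3.36%. With the minimum difference it was 0 and 1, beside 0.920% and 0.819%. Without a library the 17 became 8 (double morphant replicate 2 or 3), 9 (GFP replicate 3) or 10 (GFP replicate 1), and the 1 became 0 without any double morphant or without GFP replicate 1 or 3. The median was -0.14 for the members and -0.04 for the other maternal genes. These embryos share the GFP morphants with the triple morphants. In collection G, pou5f3.3 and sox3 morphants had 1 member higher and 17 lower, beside 2.25% and 6.25% of all genes and 0.211% and 11.3% of the other maternal genes. With the minimum difference it was 0 and 0 by edgeR, beside 1.24% and 0.732%, and 1 by DESeq2, with 29 at an unadjusted p under 0.05. The 18 calls became 7 without GFP replicate 2 or morphant replicate 3 and 10 without GFP replicate 1, and the 0 became 1 without morphant replicate 2. The medians of -0.12 for members and -0.12 for other maternal genes were the same. Collection E had 1 library per group, and its difference was not tested. There the members stood at 46.2% of stage 5 in pou5f3.3 and sox3 morphants and at 54.5% in GFP morphants. The other maternal genes stood at 92.4% and 87.8%. With cycloheximide in collection C, 0 members were higher and 5 lower in pou5f3.3 and sox3 morphants, beside 0.105% and 0.917% of all genes and 0.159% and 0.285% of the other maternal genes. With the minimum difference it was 0 and 0 by edgeR, beside 0.0217% and 0.580%, and 0 by DESeq2, with 15 at an unadjusted p under 0.05. The 5 were trappc4.S, pih1d1.L, XB5953084.L, rfwd3.S and btg5.1.L, with log2 differences of -0.98, -0.59, -0.45, -0.39 and -0.29. Their number was 3 without GFP replicate 2 or morphant replicate 1 and 2 without morphant replicate 2.

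Stage 9 groups of different collections also differed among themselves. The members' median share of stage 5 was 37.0% in DMSO embryos of collection B, 45.1% in DMSO embryos and 45.8% in untreated embryos of collection A, and 51.1% in untreated embryos of collection E. It was 54.5% in GFP morphants of collection E, 49.1% in those of collection F, 77.8% in those of collection G and 85.1% in those of collection H. The other maternal genes lay between 85.9% and 99.9% in these groups. XB5953084.L had 207, 237 and 233 TPM in GFP morphants of collection G and 88.1, 84.6 and 84.3 TPM in those of collection F, so in collection G it had not fallen from stage 5. mad2l1.L likewise had 40.8, 42.1 and 46.1 TPM in collection G and 26.1, 28.5 and 30.2 TPM in collection F. In GFP morphants, introns of other maternal genes reached 0.25 RPKM in 21.0% of cases in collection G, 15.3% in collection H and 28.4% in collection F. The part of clutch, exact age and handling in these differences was not tested, and inhibitors were compared only within a collection. Cycloheximide embryos with a GFP MO stood at 72.8% in collection C and 78.0% in collection D, which held no embryos without cycloheximide. The cycloheximide groups of collection H were discarded by the submitters for a likely problem with the drug. They stood at 89.7% with a GFP MO and 84.2% in triple morphants.

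A few members were present or absent by collection, which the rule could not see. At stage 6, 8 members were already at or below 1/16 of stage 5, namely zfhx4.S, dok1.S, c9.L, cxcl8.S, shisal2a.L, gabrd.L, XB5870894.L and ttll7.L, and the same 8 were so at stage 7. Of these, 4 had a later group mean above 1/2 of stage 5. cxcl8.S, a chemokine gene, had 22.2 and 23.2 TPM at stage 5, 0 at stages 6 and 7, 18.0 and 23.2 TPM at stage 8 and 0 at stage 9 in collection A. It had 21.3 and 21.7 TPM in GFP morphants of collection H and 0 in all 3 of collection G. zfhx4.S, a zinc finger homeobox gene, had 32.3 and 31.9 TPM at stage 5, 0.347 at stage 6, 16.2 and 19.3 TPM at stage 8 and 0.182 and 0.174 TPM at stage 9. gabrd.L, a GABA receptor subunit gene, had 20.8 and 20.4 TPM at stage 5 and at most 0.161 TPM in each of the other libraries.

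Over the 8 stage 9 groups without inhibitor or targeting MO, 10 members (8.85%) differed more than 8-fold between groups with at least 5 TPM in the highest, against 46 (0.486%) of the other maternal genes. These limits were chosen after the values were seen. itga4.L, integrin alpha 4, had 24.4 and 24.5 TPM at stage 5, 0 in both stage 8 libraries, 29.9 and 27.6 TPM at stage 9 of collection A, 24.4, 30.6 and 30.3 TPM in GFP morphants of collection G and at most 0.054 TPM in those of collection F. ca10.S, a carbonic anhydrase relative, had 46.5, 47.3 and 50.8 TPM in collection F and 3.16, 2.94 and 3.06 TPM in collection G. dhx40.S had 0.341 and 0.279 TPM at stage 9 of collection A and 17.3, 16.9 and 16.2 TPM in GFP morphants of collection F. Libraries of the same group were alike in itga4.L, ca10.S and dhx40.S, which was not so for nd6.L in collection B. For such genes a low level at stage 10.5 cannot be told apart from a clutch that never held the mRNA.

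**Figure D5:**
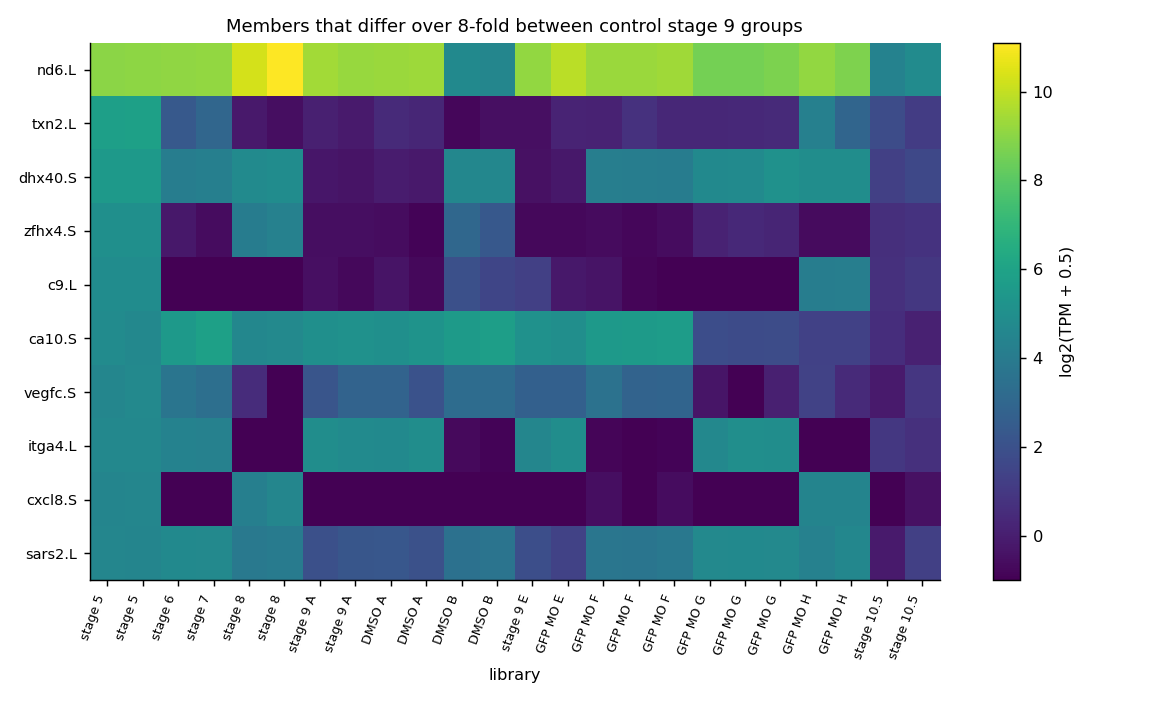
Level of the 10 members that differ more than 8-fold between stage 9 groups without inhibitor or targeting MO, as log2 of TPM plus 0.5 in colour, by library. itga4.L is near 0 at stage 8 and high at stage 9 of collection A, at 29.9 and 27.6 TPM.

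nd6.L, the only member encoded in the mitochondrial genome, reached the highest level of these. It had 509 and 530 TPM at stage 5, 1294 and 2193 TPM at stage 8, 688 and 593 TPM at stage 9 of collection A and 19.8 and 28.5 TPM at stage 10.5. In collection B it had 138 and 28.3 TPM with triptolide, 143 and 303 TPM with cycloheximide and 26.0 and 22.7 TPM with DMSO. It was called higher with both inhibitors there, with log2 differences of 1.87 ± 0.44 and 3.13 ± 0.41. In collection A its levels were 851 and 616 TPM with triptolide and 612 and 638 TPM with DMSO. The mitochondrial share of TPM ran from 1.33% to 9.00% over all libraries and from 1.33% to 3.03% in collection B, and its part in this result was not tested.

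Of 12 gene lists, 4 held members. Oocyte RNA-binding and translation control gave 5 of its 77 genes at 20 TPM or more (btg4.L, btg4.S, cpeb1.L, cpeb1.S and zar1l.S), meiosis and egg arrest 3 of 79 (fbxo43.L, fbxo43.S and mad2l1.L), mRNA decay machinery 1 of 63 (zfp36l2.1.S) and housekeeping references 1 of 27 (hprt1.L). Beside these, 113 of all 9574 genes with a symbol and at least 20 TPM at stage 5 were members. The lists were not tested against that share. The lists of egg coat, germ plasm, oocyte chromatin, maternal signalling, ubiquitin ligase and F-box, and reported miR-427 or miR-430 target genes gave 0. They held 9, 38, 31, 53, 48 and 20 genes at 20 TPM or more at stage 5. The rule left out the germ plasm gene dnd1. The follicle cell and zygotic lists held 0 genes at 20 TPM or more, so their 0 was set by the rule. With so few members among all maternal genes, a 0 in lists of this size says little about such genes. The lists are not complete, so a 0 does not mean that no such gene was a member. The F-box genes fbxo8.L and fbxo8.S and the paralog zfp36l2.2.L were members outside the lists, and the F-box gene fbxo43 was listed under meiosis. The median share of stage 5 left at stage 10.5 was 79.0% over the oocyte RNA-binding list, 46.7% over the meiosis list and 28.3% over the microRNA target list. These medians were taken over all list genes at 20 TPM or more at stage 5, members or not. The rule sets only that list genes that were no members had over 1/16 left. Differences between the lists were not tested. With cycloheximide in collection B, 13 of 86 genes of the oocyte RNA-binding list were higher and 1 lower, and 39 of 106 of the meiosis list higher and 9 lower, beside 16% and 6.11% of all genes, with medians of 0.11 and 0.15 on the log2 scale. Follicle cell markers, listed for adhering ovarian cells, summed to between 0.661 and 140 TPM per library. The high sums came from genes that were low at stage 5, led by gata4.S with a mean of 67.5 TPM at stage 10.5 and 0 TPM at stage 5.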

How the data were processed

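Per the labels and the study's methods, the authors aligned paired reads with HISAT2 (version 2.2.1 in the submitters' processing notes) to the X. laevis genome and counted exons and introns with featureCounts 2.0.1 in reverse-stranded mode. The deposited exon and intron counts are raw, and the authors deposited TPM per gene for exons and RPKM per gene for introns. Rules for members used TPM as deposited. Tests used the counts: exon entries with at least 0.5 RPM in a library (27601) and intron entries over 10 counts and 0.25 RPKM (9941) were fitted together with edgeR 4.0.16 (R 4.3.3, glmQLFit and glmQLFTest, TMM) over all groups except those of collection H, and p-values were adjusted over all entries. All 113 members passed the exon filter. Errors are SE from the F statistic, and intervals are 95% (1.96 SE). The fit form was chosen for run time after both forms had been run. DESeq2 1.42.0 was an alternative. The script was tested on simulated data.

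The members, the gene lists and the comparisons were chosen with earlier results of these data known. Named members were the 10 highest at stage 5, the 5 lowest and 5 highest in stage 9 share, the called members with the largest differences with triptolide or cycloheximide in collection B, those beside the limits and those in a list. Others were named after their values were seen: XB5953084.L, gins1.S, btg3.S, dnajc9.L, cdc7.L, fos.S, tbpl2.L, pabpn1l.S, tubg1.L, dhx40.S, zfhx4.S, dok1.S, shisal2a.L and the genes of collection C. Samples are 2 embryos each from pooled clutches, so p-values measure the spread between such samples. Replicate numbers did not pair the samples. Stage 5 libraries had been depleted of COX2 and COX3 and stage 10.5 libraries carried spike-ins, per the study's methods, which may alter TPM between those stages.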

Additional observations from a re-analysis of the deposited data

Results flagged for a closer look

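For rpain.S, whose protein imports replication protein A, the difference with triptolide had opposite signs in collections A and B. In collection A it had 115 and 132 TPM with triptolide and 146 and 143 TPM with DMSO, a difference of -20.8 TPM between means. In collection B it had 127 and 137 TPM with triptolide and 119 and 122 TPM with DMSO, a difference of 11.3 TPM. The groups did not overlap in either collection, but the edgeR test of the difference between the effects (collection A minus collection B) gave a log2 value of -0.30 ± 0.17 (SE) and an adjusted p of 0.735.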

How the results depend on the processing

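Of 345 recomputed counts and medians, 270 kept their direction and stayed within 1.5 times, and of 1493 values of single genes 1323 kept direction and call and 166 lost the call. The limits chose 431 members at 1/8, 30 at 1/32 and 67 at 50 TPM or more. With 1/4 in place of 1/2, the numbers became 0 (stage 7), 1 (stage 8), 8 (stage 9) and 94 (stage 10.5). Without mitochondrial genes 3 fell at stage 8, without members at or below 1/16 at stage 6 5 fell at stage 6, and leaving out a stage 5 library gave 0 to 1 at stage 7.

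At adjusted p alone the calls were 89 for stage 9 against 8, 36 and 34 for triptolide in collections A and B, 94 and 90 for cycloheximide in B and F, 68 for cycloheximide against triptolide, 54 for triple, 17 for double, 18 for collection G and 5 for collection C morphants. On that rule triptolide in A gave 17 (DESeq2 size factors), 14 (TMM from exons), 66 (no filter), 13 (only the libraries compared), 19 (DESeq2) and 10 to 30 (a library left out), and triptolide in B 19 (TMM from exons), 85 (no filter), 17 (only the libraries compared) and 22 to 34. Cycloheximide against triptolide gave 32 (only the libraries compared) and 57 to 62, double morphants 11 (DESeq2) and 8 to 13, collection G 4 (DESeq2 size factors), 4 (TMM from exons), 9 (no filter), 11 (only the libraries compared), 5 (DESeq2) and 7 to 14, and collection C 2 to 4. With the minimum difference, cycloheximide in F gave 1 (centred on other maternal genes), 2 (DESeq2 size factors), 2 (TMM from exons), 9 (no filter), 2 (only the libraries compared), 2 (DESeq2) and 1 to 6, triptolide in A 0 (no filter), 1 (only the libraries compared), 1 (without members at or below 1/16 at stage 6) and 0 to 2, cycloheximide against triptolide 0 to 3, double morphants 0 (no filter), 0 (without members at or below 1/16 at stage 6) and 0 to 1, and collection G 1 (DESeq2) and 0 to 1. The cause was not tested.

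The replicate block, with numbers that did not pair the samples, gave 93 calls for cycloheximide in B at adjusted p alone and moved no count by over 1.5 times, and crossed numbers in B gave 37 for triptolide and 71 for cycloheximide against triptolide. With single libraries left out, the log2 difference turned round for zfp36l2.1.S with triptolide in A (-0.01505 without triptolide replicate 1; range up to 0.3632), itga4.L with triptolide in A (-0.004665 without triptolide replicate 2; range up to 0.3755), and scgn.L in B without DMSO replicate 1 with triptolide (2.65; range from -7.33) and cycloheximide (3.86; range from -4.554). With 2 or 3 libraries a group, small differences of members at low counts were not detectable.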
